A study of Mus musculus with 64 samples.

Results

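The genes of the cytosolic ribosomal proteins were described across bulk RNA sequencing libraries of the mouse hippocampus. Members were chosen by symbol as protein-coding genes whose name begins with Rpl or Rps followed by a digit, together with Rpsa, Rplp0, Rplp1 and Rplp2. The S6 kinase genes, names ending in -ps or -rs and 1 further gene were left out. This gave 85 genes of the 32227 in the table of counts. Of these, 45 encode proteins of the large (60S) ribosomal subunit and 31 encode proteins of the small (40S) subunit. A further 7 are paralogs of such genes (Rpl3l, Rpl10l, Rpl22l1, Rpl36al, Rpl39l, Rps27l and Rps27rt). The 2 others, Rps19bp1 and Rpl7l1, match by name and are not subunits of the finished ribosome. The members lie on 19 chromosomes, and 4 of them (Rpl10, Rpl36a, Rpl39 and Rps4x) are on the X chromosome.

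The 64 libraries came from females and males of 8 inbred strains, and every one of the 16 combinations of strain and sex has 4 libraries. C57BL/6J is the strain of the mouse reference genome, and 129S1/SvImJ, A/J, NOD/ShiLtJ and NZO/HlLtJ are other laboratory strains, of which NOD/ShiLtJ is known for autoimmune diabetes and NZO/HlLtJ for obesity. WSB/EiJ, CAST/EiJ and PWK/PhJ were derived from wild mice of different subspecies. No treatment or engineered allele is given for any group, and the age is not given in the sources used here. The labels do not say that the libraries of a group came from separate animals, so p-values measure the spread between these libraries, which may be technical.

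The ribosome translates messenger RNA into protein, and each ribosome holds a single copy of nearly all of its proteins. The acidic proteins Rplp1 and Rplp2, which form the stalk that recruits elongation factors together with Rplp0, are the exception. The messages of ribosomal proteins begin with a run of pyrimidines, the terminal oligopyrimidine (TOP) motif, through which the kinase mTOR and the RNA-binding protein LARP1 control their translation and storage together. In the hippocampus, ribosomes in cell bodies and dendrites supply the new protein that lasting synaptic change needs. Ribosomal protein genes have also left many processed copies in the genome, and short reads from a gene and its copies can be hard to tell apart.

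The starts of genes with large strain differences, and of a pair that shares its sequence, are shown first. RefSeq promoters on build GRCm38.p6 were found for 65 members, and 20 members had none in the table used. Each line gives 60 bases before the start of transcription and 30 bases from it, 5′ to 3′ on the strand of the gene. Rps2, Rpl41 and Rpl37 are shown for their levels in WSB/EiJ, PWK/PhJ and NOD/ShiLtJ, and Rpl28 is an example of a pyrimidine-rich start. Capitals mark TATAAA in Rps2 (chr17:24720003-24720092, plus strand), CCGGAAG in Rpl41 (chr10:128549139-128549228, minus strand) and in Rpl37 (chr15:5116553-5116642, plus strand), and CTTTCC in Rpl28 (chr7:4792905-4792994, plus strand). The TATAAA of Rps2 begins at base 18 of the transcribed part, not before the start, and the CTTTCC of Rpl28 begins at base 3 of it. CCGGAAG begins 56 bases before the start in Rpl41 and 23 bases before it in Rpl37. The bases just after the start of Rpl37 were not found in a GENCODE M21 transcript of that gene, while those of the other genes shown were.
Rps2: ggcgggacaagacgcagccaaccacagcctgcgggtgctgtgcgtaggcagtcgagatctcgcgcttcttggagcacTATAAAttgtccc
Rpl41: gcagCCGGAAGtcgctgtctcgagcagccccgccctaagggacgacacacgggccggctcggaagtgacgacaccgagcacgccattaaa
Rpl37: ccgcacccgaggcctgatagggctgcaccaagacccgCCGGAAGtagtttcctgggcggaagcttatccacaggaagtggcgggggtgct
Rpl28: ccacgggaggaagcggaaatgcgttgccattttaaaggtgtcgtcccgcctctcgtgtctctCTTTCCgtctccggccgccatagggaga

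Rps27 encodes a 40S protein, and Rps27rt is a retrotransposed copy of it. They are shown because reads from their messages can hardly be separated. Rps27 starts at chr3:90213619-90213708 (minus strand) and Rps27rt at chr9:114982710-114982799 (minus strand), where the coordinates are those of the printed stretch. Capitals mark the longest run the stretches share, of 29 bases. It begins at the second base of Rps27 and at the first base of Rps27rt. In the bases before the start the longest shared run was 10 bases.
Rps27: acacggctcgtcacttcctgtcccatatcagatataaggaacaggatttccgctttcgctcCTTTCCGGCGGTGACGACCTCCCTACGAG
Rps27rt: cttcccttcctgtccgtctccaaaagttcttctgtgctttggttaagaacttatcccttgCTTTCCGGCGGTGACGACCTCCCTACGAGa

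Over windows of 300 bases (250 before the start and 50 after), 77 starts of the 65 members were searched on both strands. The pyrimidine-rich CTTTCC stood in 40 of the 77 (51.9%), against 26.6% of all 32851 starts in the table. CCGGAAG, the letters bound by ETS factors, stood in 27 (35.1%), against 8.9% of all starts. TATAAA stood in 7 (9.1%), against 13.6%. A match is a description of the letters and not of binding.

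Levels are given as CPM, the count of a gene scaled to library size with TMM factors, and are compared between genes only as CPM per kilobase of a gene's main transcript. Libraries held between 16607602 and 27759221 counts in total (median 22176356.5). The members held 1.06% to 1.92% of all counts of a library. Their summed level ran from 10900 to 18662 CPM with a median of 12188, of which the 60S genes held 58.7% and the 40S genes 40.1%. Rplp1 of the stalk was highest for its length, at 783 CPM per kb. It was followed by Rps15 (435 CPM per kb), Rpl3, which lines the centre where peptide bonds form (375 CPM per kb), Rps29 (359 CPM per kb) and Rps2, a protein at the entry of the messenger RNA channel (337 CPM per kb).

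At the other end of the order stood 4 genes outside the ordinary set of subunits, together with a single subunit gene. Rpl10l, a testis paralog of Rpl10, had no count in any library. The others were Rpl39l, another testis paralog (0.0821 CPM per kb, with counts in 36 libraries and at most 7), Rpl3l, the paralog of heart and skeletal muscle (0.167 CPM per kb), and Rps27rt (11.6 CPM per kb). The subunit gene was Rpl35, at 2.36 CPM per kb and 2.23 ± 0.584 CPM (SD, n = 64). Of the 75-base windows of Rpl35's message, 64.4% were found in no other gene's transcript and 32.9% were shared with Gm2000. Where its reads were placed was not tested. The next lowest subunit gene per length was Rps15a, at 24.2 CPM per kb over a main transcript of 5179 bases. Rpl10l and Rpl39l did not pass the filter on low counts, and 83 of the 85 members were tested.

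A group of 5 libraries stood high for the members as a whole, each from a different group of strain and sex. In order, the ratio of the summed level to the median of the 3 other libraries of the group was 1.55 in 129S1/SvImJ female 1 and 1.52 in A/J male 2. It was 1.35 in WSB/EiJ female 1, 1.28 in C57BL/6J male 4 and 1.20 in CAST/EiJ female 4. Of the 83 members tested, 83, 82, 80, 80 and 80 were above all 3 other libraries in these 5, against 38.3%, 36.8%, 35.6%, 34.8% and 32.7% of all 17382 genes tested. The next library, A/J female 4, stood at a ratio of 1.1. A/J male 2 was also the only library of the 64 that stood apart by its correlation with its group.

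**Figure D1:**
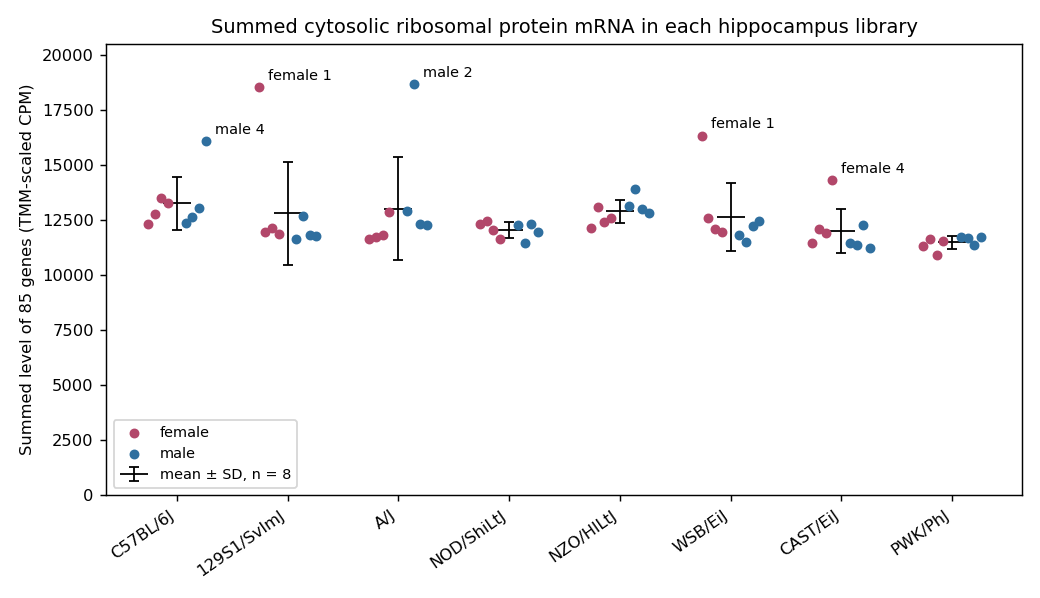
Summed level of the 85 cytosolic ribosomal protein genes (TMM-scaled CPM, vertical axis from 0) in each library by strain (horizontal axis), with a point per library in the colour of its sex and bars for the strain mean and SD (n = 8). The 5 high libraries, at 14313 to 18662 CPM, are named, and the 59 others reach at most 13899 CPM.

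Other genes moved in these 5 libraries as well. Genes with a main transcript under 1000 bases stood a median of 0.55, 0.49, 0.36, 0.30 and 0.23 above the mean of the 3 other libraries on the log2 scale, in the order above, and genes of 4000 bases or more stood at -0.30, -0.30, -0.24, -0.16 and -0.12. The members, whose median main transcript is 886 bases, stood at 0.65, 0.62, 0.42, 0.37 and 0.28. The 46 nuclear genes of respiratory complex I, which encode short messages of another machine, stood at 0.64, 0.60, 0.36, 0.29 and 0.27. In the 59 other libraries the members ran from -0.25 to 0.13 and the genes under 1000 bases from -0.19 to 0.09. Markers of choroid plexus stood at 0.50, -3.03, 0.53, 1.87 and 3.13 in the 5 libraries, and ran from -4.43 to 4.57 in the others. Blood markers stood at 0.97, 0.40, 0.90, 0.94 and -0.00, where the 59 others reached at most 0.84. Dentate granule neuron markers stood at -0.07, -0.54, -0.29, -0.53 and -0.10, where the lowest of the others was -0.27. The part of transcript length and of these cells in the high libraries was not tested further. Results below are given with and without these 5 libraries where they differ.

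**Figure D2:**
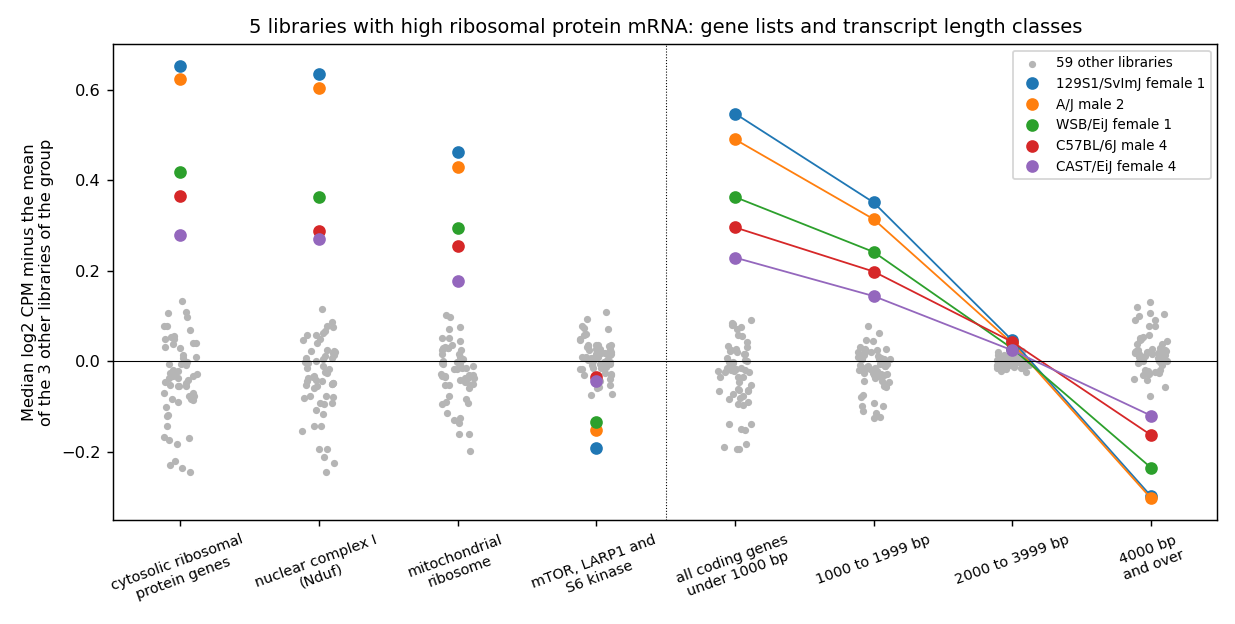
Median log2 CPM of a set of genes in a library minus the mean of the 3 other libraries of its group (vertical axis), for gene lists and for coding genes by main transcript length (horizontal axis), with coloured points for the 5 high libraries and grey points for the 59 others. In the high libraries the ribosomal protein genes stand at 0.28 to 0.65 and the genes of 4000 bases or more at -0.30 to -0.12.

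Strain means of the summed level differed by less than each high library did from the others of its group. PWK/PhJ had the lowest mean, at 11489 ± 283 CPM (SD, n = 8), with a lowest library at 10900, a median of 11593 and a highest at 11748. C57BL/6J had the highest, at 13251 ± 1225 CPM. The order between was A/J at 13021 ± 2331, NZO/HlLtJ at 12888 ± 541, 129S1/SvImJ at 12803 ± 2336, WSB/EiJ at 12627 ± 1540, NOD/ShiLtJ at 12054 ± 354 and CAST/EiJ at 12000 CPM, with libraries between 11209 and 14313. Neighbours in this order overlapped in their spread. The ends did not, as all 8 PWK/PhJ libraries were below all libraries of C57BL/6J (lowest 12297 CPM) and of NZO/HlLtJ (lowest 12135 CPM). Without the 5 high libraries NZO/HlLtJ (12888 CPM) and C57BL/6J (12843 ± 451 CPM) were highest and the other means ran from 11489 CPM in PWK/PhJ to 12215 ± 526 CPM in A/J. In bulk tissue, fewer cells of a type and less RNA per cell cannot be told apart.

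The balance of the subunits lay in a narrow range. The ratio of the summed 40S level to the summed 60S level ran from 0.659 to 0.727 over the 64 libraries, with a median of 0.686. The highest value was that of 129S1/SvImJ female 1, a high library. All PWK/PhJ libraries (at most 0.668) were below all libraries of the strains other than CAST/EiJ (at least 0.672). The lowest strain means were 0.663 ± 0.003 in PWK/PhJ and 0.668 ± 0.006 in CAST/EiJ, and the highest were 0.696 ± 0.006 in WSB/EiJ and 0.699 ± 0.012 in 129S1/SvImJ (SD, n = 8).

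The median member differed among strains by less than the median gene. A strain difference was tested for each gene with an F test over the 8 strain means in edgeR's quasi-likelihood model, with Benjamini-Hochberg adjustment over all 17382 genes tested and a threshold of 0.05. Of the 83 members, 54 (65.1%) passed at any fold, against 89.2% of all genes tested, with 31 of 45 60S genes and 18 of 31 40S genes among them. A range between the highest and lowest strain of at least 1 on the log2 scale was reached by 3 members, against 27.6% of all genes. These were Rpl3l (1.79), Rps2 (1.29) and Rpl41 (1.23). A range of at least 0.5 was reached by 12 members, against 50.5% of all genes. The median range was 0.28 over the members and 0.55 over all genes.

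Without the 5 high libraries 80 members passed at any fold, against 92.3% of all genes, and the median range of the members was 0.26. Rps27rt then joined the 3 members with a range of at least 1, and 28.1% of all genes had such a range. Adding the mean level of the complex I genes as a covariate gave 82 members at any fold, against 93.8% of all genes.

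**Figure D3:**
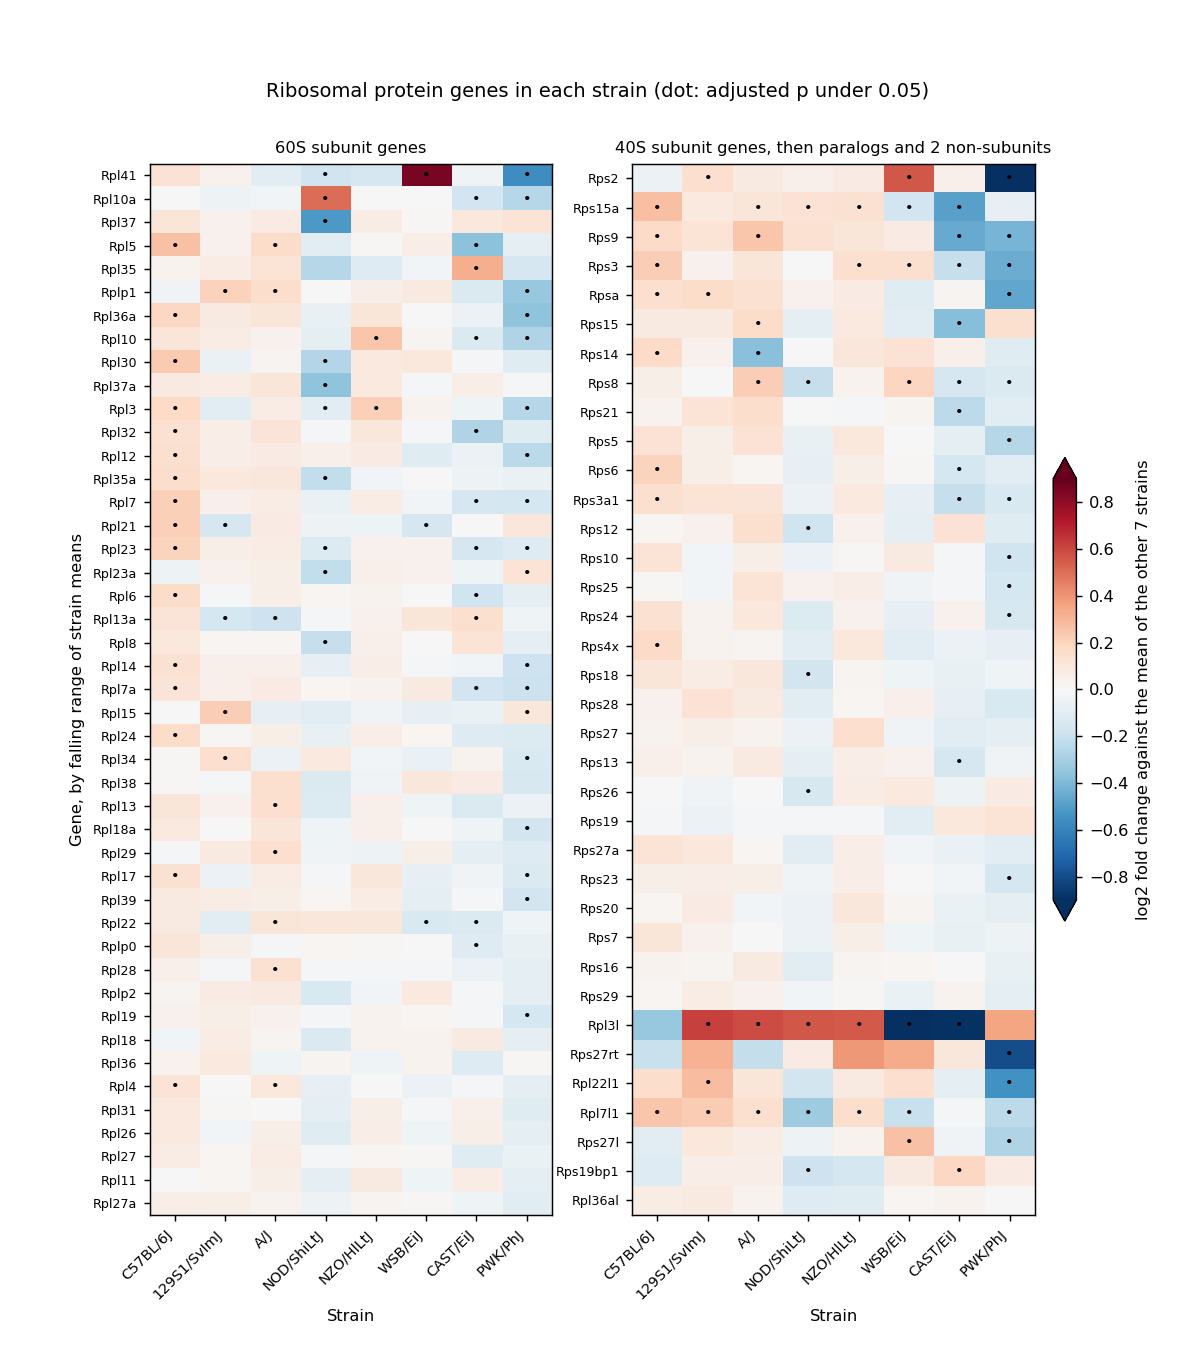
Log2 fold change of tested ribosomal protein genes (rows) in one strain compared with the 7 others together (columns), in colour from blue (lower) to red (higher), with a dot where the adjusted p was under 0.05. Strong colours stand in few cells, among them Rps2 in PWK/PhJ and WSB/EiJ and Rpl41 in WSB/EiJ, and most cells are pale.

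Each strain was next compared with the mean of the other 7 by the same quasi-likelihood test. The 8 comparisons share libraries, so each is read by itself against the share of all genes called in its direction. In C57BL/6J, 25 members (30.1%) were higher and 0 were lower, against 20.4% and 17.6% of all genes. The median log2 fold change of the members was 0.09. PWK/PhJ had 31 members lower (37.3%) and 4 higher (4.8%), against 28.8% and 28.9% of all genes, with a median of -0.10. NOD/ShiLtJ had 16 lower (19.3%) and 3 higher (3.6%), against 18.2% and 21.4%, with a median of -0.06. CAST/EiJ had 21 lower (25.3%) and 4 higher (4.8%), against 28.5% and 28.3%, with a median of -0.04.

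The 4 other strains had fewer calls. In A/J, 13 members were higher (15.7%) and 2 lower (2.4%), against 19.1% and 14.7% of all genes. In 129S1/SvImJ 8 were higher (9.6%) and 2 lower (2.4%), against 17.6% and 14.7%. NZO/HlLtJ had 6 higher (7.2%) and 0 lower, against 21.8% and 16.2%, and WSB/EiJ had 5 in each direction (6.0%), against 22.3% and 20%. The 83 members in these strains had medians of 0.07, 0.05, 0.05 and -0.00. Medians over all genes tested were within 0.01 of 0 in each of the 8 comparisons.

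Cell type markers and mitochondrially encoded messages moved with strain as well, and the sets named here are not all those with calls. In C57BL/6J all 6 oligodendrocyte markers were higher (median log2 fold change 0.31), as were 5 of 6 endothelial and mural markers (0.29). All 13 mitochondrially encoded messages (0.35) and 4 of 6 dentate granule neuron markers (0.40, with 1 lower) were also higher. In NOD/ShiLtJ all 6 oligodendrocyte markers (0.40) and 12 of 13 mitochondrially encoded messages (0.27) were higher. So were 4 of 6 microglia markers (0.21) and 3 of 6 thalamus and habenula markers (0.32, with 1 lower). In CAST/EiJ 4 of 6 oligodendrocyte markers (-0.30), 4 of 6 microglia markers (-0.12) and 10 of 13 mitochondrially encoded messages (-0.30) were lower. Higher there were 3 of 5 astrocyte markers (0.24, with 1 lower) and 4 of 6 dentate granule neuron markers (0.23, with 2 lower). So were 3 of 5 CA1 pyramidal neuron markers (0.14, with 0 lower). In NZO/HlLtJ all 5 CA1 markers were lower (-0.33), while 4 of 6 endothelial and mural (0.25) and 3 of 5 astrocyte markers (0.14) were higher. Lower in A/J were 10 of 13 mitochondrially encoded messages (-0.21), 5 of 6 endothelial and mural (-0.24) and 4 of 5 CA1 markers (-0.23). In WSB/EiJ all 13 mitochondrially encoded messages (0.40) and all 5 CA1 markers (0.29) were higher. All 6 microglia markers were lower in 129S1/SvImJ (-0.31). The part of these genes in the members' levels was not tested.

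These counts and medians moved with the high libraries. Without them the medians were 0.09 in C57BL/6J, 0.09 in NZO/HlLtJ, 0.03 in A/J, -0.02 in 129S1/SvImJ, NOD/ShiLtJ and WSB/EiJ, -0.04 in CAST/EiJ and -0.06 in PWK/PhJ, so that the sign turned in 129S1/SvImJ. The counts in NZO/HlLtJ became 60 members higher and 2 lower, against 24.3% and 21% of all genes, and C57BL/6J had 44 higher and 2 lower, against 22.1% and 18.9%. PWK/PhJ had 42 lower and 10 higher, against 30.6% and 31.0%. In 129S1/SvImJ the balance turned, with 16 members lower and 7 higher, against 16% and 18.8% of all genes. Counts are of the 83 members, so 16 is 19.3% of them and 21 is 25.3%. WSB/EiJ had 21 lower and 12 higher, against 21% and 23.9%, CAST/EiJ 28 lower and 11 higher, against 29% and 30.8%, and NOD/ShiLtJ 23 lower and 13 higher, against 20.7% and 24.3%. A/J had 19 higher and 10 lower, against 20.3% and 16.4%. Leaving out 129S1/SvImJ female 1 alone gave 2 higher and 12 lower in its strain, and leaving out A/J male 2 alone gave 4 higher and 5 lower. Without C57BL/6J male 4 alone there were 11 higher and 1 lower. Shares of all genes in these fits with 1 library left out are not given, so their counts are not read as results about the members.

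The mean level of the complex I genes as a covariate moved the counts further. The covariate differed by strain itself, as 30 of the 46 complex I genes passed the strain F test. In PWK/PhJ 9 of these genes were higher and 6 lower (median log2 fold change 0.04). Without the 5 high libraries 26 were higher and 8 lower there (0.08). The part of this in the counts was not tested. With the covariate PWK/PhJ had 66 members lower and 9 higher, against 31.7% and 33.1% of all genes. A/J had 48 higher and 4 lower, against 22.5% and 19.3%. NZO/HlLtJ had 62 higher and 3 lower, against 25.2% and 20.4%. In C57BL/6J 28 were higher and 15 lower, against 23.7% and 21%, and the median was 0.02. The 4 other strains were nearer to balance. In this fit 129S1/SvImJ had 11 higher and 14 lower (against 21.2% and 17.6%), NOD/ShiLtJ 19 and 22 (24.5% and 20.8%), WSB/EiJ 17 and 24 (25.7% and 23.6%) and CAST/EiJ 21 and 25 (31.2% and 31.1%).

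**Figure D4:**
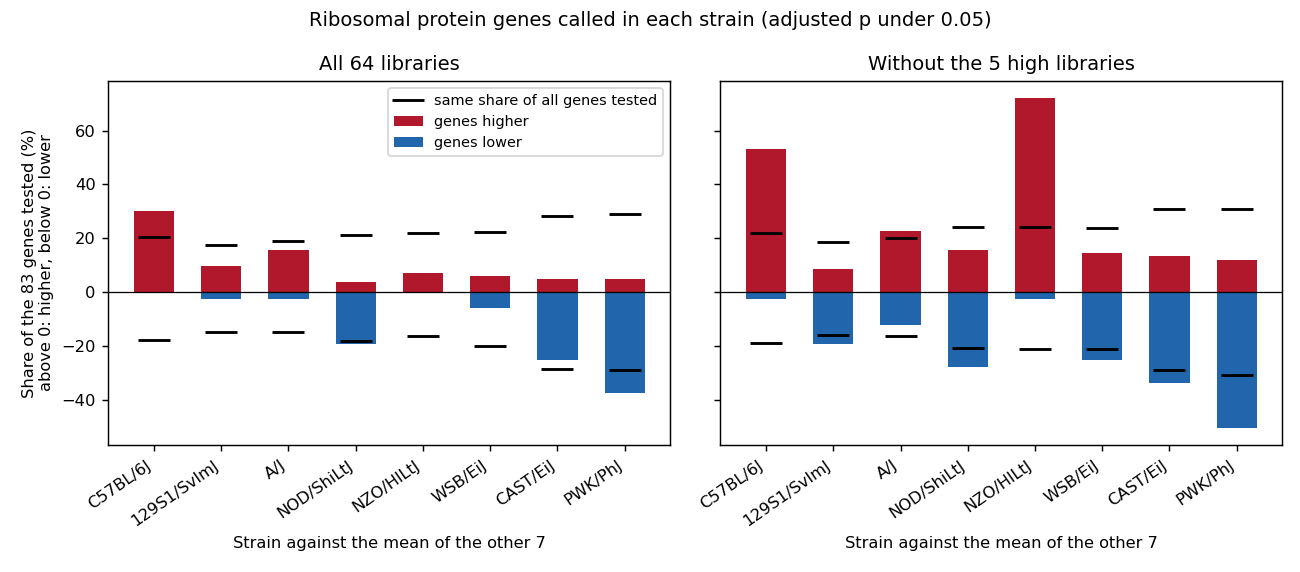
Share (%) of the 83 tested ribosomal protein genes called higher (bars above 0) and lower (bars below 0) by strain, with all 64 libraries at left and without the 5 high ones at right, and black lines at the share of all genes tested. NZO/HlLtJ goes from 6 to 60 genes higher and PWK/PhJ from 31 to 42 lower.

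Rps2, the 40S protein uS5, carried the largest difference of any subunit gene. Its level in PWK/PhJ was lowest at 197, with a median of 206 and a highest of 218 CPM, against 316, 369 and 652 CPM in the 56 other libraries. All 8 PWK/PhJ libraries were below all the others. The mean was 207 ± 6.53 CPM (SD, n = 8) against 392 ± 68.0 (SD, n = 56), a log2 fold change of -0.91 (SE 0.06, adjusted p = 2.39e-19, edgeR quasi-likelihood test). It made 1.80% of the members' sum in PWK/PhJ and 3.10% elsewhere.

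In WSB/EiJ Rps2 was higher, with a lowest library at 443, a median of 496 and a highest of 652 CPM, against 197, 358 and 567 CPM in the others. The groups overlapped over all libraries. Without the 5 high libraries Rps2 and Rpl41 were the 2 members with all WSB/EiJ libraries above all the others, against 0.616% of all genes. The log2 fold change was 0.56 (SE 0.05, adjusted p = 3.65e-13, edgeR quasi-likelihood test), and 0.55 without the high libraries. Rps2 made 4.0% of the members' sum in WSB/EiJ, against 2.78% elsewhere, and by this share the groups did not overlap.

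Rpl41, the shortest ribosomal protein, which bridges the subunits, moved in the same strains. In WSB/EiJ its libraries ran from 37.6 through a median of 44.7 to 57.7 CPM, against 16.2, 24.9 and 39.9 CPM in the others. The only other library inside the WSB/EiJ range was 129S1/SvImJ female 1. The log2 fold change was 0.85 (SE 0.06, adjusted p = 1.37e-18, edgeR quasi-likelihood test). In PWK/PhJ the libraries ran from 16.2 to 22.3 CPM with a median of 19.3, against 20.3, 26.0 and 57.7 CPM elsewhere, and the log2 fold change was -0.56 (SE 0.07, adjusted p = 3.2e-10).

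**Figure D5:**
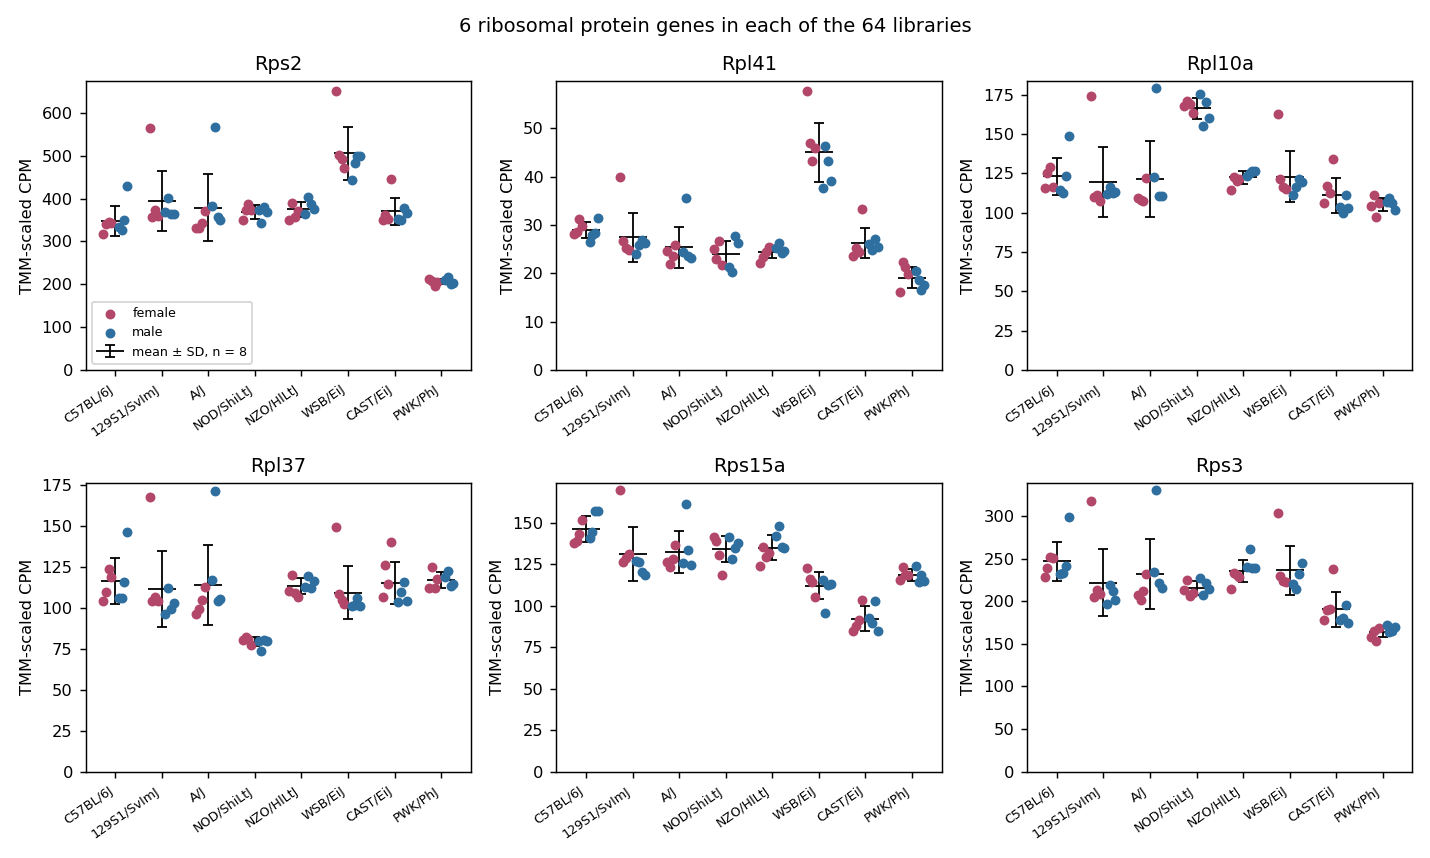
Level (TMM-scaled CPM, vertical axes from 0) of Rps2, Rpl41, Rpl10a, Rpl37, Rps15a and Rps3 in each library by strain, with a point per library in the colour of its sex and bars for the strain mean and SD (n = 8). The 8 PWK/PhJ libraries of Rps2, between 197 and 218 CPM, sit below all 56 others.

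PWK/PhJ also had all 8 libraries below all the others in 3 further genes, so 4 of 83 members in all with Rps2, against 1.65% of all genes tested. Without the 5 high libraries the count was also 4, against 1.92%. The 3 further genes were Rps3, a 40S protein at the messenger entry that also acts in DNA repair, Rpsa, known also as the laminin receptor, and Rpl3. Rps3 ran from 153 through 165 to 173 CPM, against 174, 222 and 330 CPM elsewhere, a log2 fold change of -0.45 (SE 0.06, adjusted p = 7.9e-10, edgeR quasi-likelihood test). Rpsa ran from 235 through 260 to 268 CPM, against 285, 349 and 559 CPM, a log2 fold change of -0.47 (SE 0.06). Rpl3 ran from 418 through 432 to 438 CPM, against 442, 509 and 673 CPM, a log2 fold change of -0.26 (SE 0.04).

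Markers of other cells moved with PWK/PhJ as well. All 6 oligodendrocyte markers were lower there (median log2 fold change -0.43), and 12 of 13 mitochondrially encoded proteins had lower messages (median -0.64). In the other direction, 3 of 5 CA1 pyramidal neuron markers were higher and 0 lower (median 0.21). All 7 choroid plexus markers had their lowest strain mean in PWK/PhJ, but only 1 of them was called lower there and only 1 passed the strain F test. The choroid plexus markers summed to a median of 96.0 CPM in PWK/PhJ, with libraries between 17.5 and 1815 CPM, against 17.5 to 4812 CPM over the 64 libraries. With the choroid plexus level as a covariate, 27 members were lower in PWK/PhJ and 3 higher, against 27.9% and 28% of all genes. The part of the other cells in the members' levels was not tested.

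The largest calls among subunit genes in NOD/ShiLtJ were in 3 members of the 60S subunit. Rpl10a, which forms the mobile L1 stalk, ran from 155 through 169 to 175 CPM, against 97.5, 114 and 180 CPM elsewhere. It overlapped with the others through the high libraries, and without them all 8 NOD/ShiLtJ libraries were above all the others (1 of 83 members, against 0.161% of all genes). The log2 fold change was 0.50 (SE 0.05, adjusted p = 4.6e-11, edgeR quasi-likelihood test), and the share of the members' sum was 1.38% against 0.937%.

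Rpl37 and Rpl37a, small zinc-binding proteins of the 60S subunit, were the 2 of 83 members with all 8 NOD/ShiLtJ libraries below all the others, against 0.173% of all genes tested (also 2 without the high libraries, against 0.201%). Rpl37 ran from 73.8 through 80.1 to 82.4 CPM, against 96.2, 110 and 172 CPM, a log2 fold change of -0.52 (SE 0.06, adjusted p = 2.1e-09, edgeR quasi-likelihood test). Rpl37a ran from 68.0 through 75.3 to 79.6 CPM, against 79.8, 93.2 and 165 CPM, a log2 fold change of -0.37 (SE 0.08, adjusted p = 2.0e-04). The gap between the groups was wide for Rpl37 and narrow for Rpl37a.

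Rps15a, Rpl5 and Rps6 had their lowest strain mean in CAST/EiJ and their highest in C57BL/6J. Rps15a, a protein of the 40S body, ran from 84.6 through 90.7 to 104 CPM in CAST/EiJ, against 95.9, 128 and 170 CPM elsewhere, with a log2 fold change of -0.49 (SE 0.04, adjusted p = 1.05e-15, edgeR quasi-likelihood test). In C57BL/6J it ran from 138 through 144 to 157 CPM, at 0.27 (SE 0.04, adjusted p = 3.2e-08). The CAST/EiJ libraries overlapped the low end of the others, and the C57BL/6J libraries lay at the high end.

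Rpl5 and Rpl11 carry the 5S ribosomal RNA and, when free, bind the p53 regulator Mdm2. Rpl5 ran from 161 through 168 to 191 CPM in CAST/EiJ, against 189, 215 and 313 CPM elsewhere (log2 fold change -0.37, SE 0.04, adjusted p = 1.2e-10, edgeR). In C57BL/6J it ran from 231 through 250 to 289 CPM (0.26, SE 0.04, adjusted p = 5.7e-07). Its partner Rpl11 had a range of 0.15 over the strains and did not pass the F test over all 64 libraries (adjusted p = 0.470, edgeR). Without the 5 high libraries 80 of the 83 members passed this test. The difference between Rpl5 and Rpl11 was not tested.

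Without the high libraries 3 members were below all other libraries in CAST/EiJ, Rpl5 and the 60S gene Rpl32 among them, against 2.17% of all genes. Upward calls in this strain were small. They included Rpl35 at 2.70 ± 0.534 against 2.17 ± 0.564 CPM (0.33, adjusted p = 0.0242, edgeR) and Rps19bp1, a regulator of Sirt1, at 16.3 ± 2.23 against 14.4 ± 1.96 CPM (0.18, adjusted p = 0.0113).

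In A/J, Rps14, the 40S gene lost in the human 5q- syndrome, had a lowest library at 119, a median of 139 and a highest of 222 CPM. The other strains stood at 159, 184 and 292 CPM. The groups overlapped only through A/J male 2, the library that stood apart. Without the 5 high libraries Rps14 was the 1 member of 83 below all others in A/J, against 0.178% of all genes. Its log2 fold change was -0.38 (SE 0.07, adjusted p = 1.2e-05, edgeR quasi-likelihood test), and -0.43 without the high libraries.

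Rps9, a 40S protein, ran the other way in A/J, from 157 through 168 to 263 CPM (log2 fold change 0.25, SE 0.06, adjusted p = 3.3e-04, edgeR). It was lower in CAST/EiJ, at 117 ± 12 CPM (-0.45, adjusted p = 5.2e-09), and in PWK/PhJ, at 119 ± 5.21 CPM (-0.42, adjusted p = 3.7e-08). Rpl13a, a 60S protein with a further role in translational silencing, was lower in A/J at 249 ± 52.5 CPM (-0.19, adjusted p = 0.0162) and in 129S1/SvImJ at 254 ± 51.0 CPM (-0.16, adjusted p = 0.0475). As a share of the members' sum, Rpl13a was 1.91% in A/J and 1.98% in 129S1/SvImJ, against 2.28% and 2.27% in the libraries of the 7 other strains. Rpl21, a 60S protein, was also lower in 129S1/SvImJ, at 215 ± 33.3 against 239 ± 26.5 CPM (-0.15, adjusted p = 0.0134).

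Rpl10, an X-linked 60S protein added late in assembly, was higher in NZO/HlLtJ. Its libraries ran from 123 through 138 to 143 CPM, against 89.3, 116 and 149 CPM elsewhere, so the groups overlapped. The log2 fold change was 0.25 (SE 0.05, adjusted p = 1.5e-05, edgeR quasi-likelihood test). A copy, Rpl10-ps3, shares 84.9% of the 75-base windows of its message and stood at strain means of 83.5 to 98.5 CPM. Summed with that copy, NZO/HlLtJ was at 233 ± 11.8 CPM and PWK/PhJ, the lowest strain, at 184 ± 11.7 CPM.

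Rpl22 and its paralog Rpl22l1 are near in level. For their length the paralog was higher, at 76.6 CPM per kb against 43.5 for Rpl22. Rpl22l1 was lower in PWK/PhJ, at 30.1 ± 3.42 CPM (log2 fold change -0.54, adjusted p = 3.5e-08, edgeR), where Rpl22 was at 87.0 ± 3.96 CPM and did not pass (-0.04, adjusted p = 0.49). In 129S1/SvImJ Rpl22l1 ran from 40.7 through 45.3 to 84.7 CPM, the last in female 1 (0.28, adjusted p = 0.0015). Without that library the value was 0.15 (adjusted p = 0.0742). The difference between the genes of the pair was not tested.

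Rpl3l, the muscle paralog of Rpl3, had the widest range of any member, on very few reads. It had counts in 63 libraries and at most 13 in any. The lowest mean was in WSB/EiJ, at 0.0949 ± 0.0638 CPM (log2 fold change -1.43, adjusted p = 1.1e-04, edgeR), followed by CAST/EiJ at 0.134 ± 0.0752 CPM (-0.89, adjusted p = 0.0074). It passed in the upward direction in 129S1/SvImJ (0.61), A/J (0.59), NOD/ShiLtJ (0.56) and NZO/HlLtJ (0.55), with adjusted p between 0.0230 and 0.0467. Rpl3 itself was 2251 times higher per length.

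Among the other pairs, Rps27 was 17.4 times as high per length as Rps27l, a target of p53, and 21.6 times as high as Rps27rt. As 98.5% of the 75-base windows of Rps27 are shared with Rps27rt, levels of these 2 genes may depend on how reads were placed. Rps27l was higher in WSB/EiJ, at 8.38 ± 0.794 CPM (log2 fold change 0.27, adjusted p = 0.0015, edgeR), and lower in PWK/PhJ, at 6.04 ± 0.608 CPM (-0.27, adjusted p = 0.0014). Rps27rt in PWK/PhJ ran from 1.41 through 2.54 to 3.86 CPM and overlapped the others (-0.80, SE 0.28, adjusted p = 0.0136). Rpl36a, on the X chromosome, was lower in PWK/PhJ, at 50.1 ± 3.30 CPM (-0.36, adjusted p = 1.1e-06), while its paralog Rpl36al stood at 45.5 ± 1.81 CPM (-0.00, adjusted p = 0.98). Rpl7l1, a factor of pre-ribosomes, was lower in NOD/ShiLtJ (-0.32, adjusted p = 5.8e-12) and WSB/EiJ (-0.20, adjusted p = 9.1e-07).

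The stalk proteins differed in their calls over all 64 libraries, and the difference between them was not tested. Rplp1 was at 316 ± 14.4 CPM in PWK/PhJ (log2 fold change -0.34, adjusted p = 1.0e-05, edgeR) and at 442 ± 89.7 CPM in 129S1/SvImJ (0.21, adjusted p = 0.0069). Rplp0 and Rplp2 did not pass the F test, with ranges of 0.20 and 0.19 (adjusted p = 0.095 and 0.207). Rps6, the substrate of S6 kinase, was at 273 ± 24.3 CPM in C57BL/6J (0.20, adjusted p = 4.1e-04) and 219 ± 13.8 CPM in CAST/EiJ (-0.16, adjusted p = 0.0031). Rps27a, which is made as a fusion with ubiquitin, did not pass (range 0.19, adjusted p = 0.139). Without the 5 high libraries 80 of the 83 members passed the F test, and 82 passed with the complex I covariate. The 5 libraries were picked by the members' own summed level, so leaving them out narrows the members' spread by choice. The covariate was also added after seeing the data. Passes in these fits therefore do not settle the calls that failed over all libraries.

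Sex made no call among the members. Of 83 members 0 passed the quasi-likelihood test of females against males, against 0.167% of all genes tested, and DESeq2 also gave 0. At an unadjusted p under 0.05 there was 1 member, Rpl3l, with a log2 difference of 0.60 (female minus male, adjusted p = 0.151), against 5.3% of all genes. The median difference of the members was 0.01. For the interaction of strain and sex edgeR's quasi-likelihood test and DESeq2 each gave 0 calls, against 0.046% of all genes, with 10 members at an unadjusted p under 0.05 and 10.7% of all genes. The CAST/EiJ females carry a separate block of title numbers, and sex and block cannot be told apart in that strain. Without CAST/EiJ both counts were also 0.

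Within groups, the members moved together. The median standard deviation of a member around its group mean was 0.15 on the log2 scale, against 0.16 over all genes, and 0.07 without the 5 high libraries, against 0.13. The Pearson correlation of deviations over the 64 libraries had a median of 0.890 over 3403 pairs of members, and 3399 pairs were positive. Without the high libraries the median was 0.492. Over pairs of all genes it was -0.00. The points of each pair share their libraries and depth, so these are descriptions. The high libraries were picked by the members' own level, so leaving them out by itself lowers the members' spread.

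The most variable members were Rps27rt (0.74), Rpl3l (0.42) and Rpl35 (0.35), all of low count, and they were also the most variable without the 5 high libraries (0.65, 0.42 and 0.33). Rpl37a and Rpl36 came next over all libraries (0.20 each), at 0.08 and 0.10 without the high ones, where Rps27l (0.15) and Rpl22l1 (0.14) came next. The lowest spread over all libraries was that of Rpl7l1 (0.08), Rpl4 (0.10), Rpl3 (0.10), Rps15a (0.10) and Rpl15 (0.11). Without the high libraries it was that of Rpl4, Rpl7a, Rpl15 and Rpl3, each at 0.04 to 0.05, while Rpl7l1 and Rps15a stood at 0.07, near the median of the members. Paralog pairs shared part of this movement, which for Rps27 and Rps27rt may depend on how reads were placed. Their within-group correlation was 0.85 for Rpl36a and Rpl36al, 0.70 for Rps27 and Rps27l, 0.63 for Rpl22 and Rpl22l1, 0.55 for Rps27 and Rps27rt, 0.40 for Rpl7 and Rpl7l1 and 0.11 for Rpl3 and Rpl3l.

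Genes that act with the ribosomal proteins were described from fixed lists. Fau, which is made as a fusion with a ubiquitin-like protein, and Rack1, a scaffold on the 40S subunit, did not pass the strain F test (ranges 0.27 and 0.12, adjusted p = 0.0869 and 0.515, edgeR). Both passed it without the 5 high libraries. Of 18 other genes with TOP messages, among them the elongation factors, 13 passed over all 64 libraries, against 89.2% of all genes. A range of at least 1 was reached by 0 of them. In CAST/EiJ 10 of these 18 were lower and 2 higher (median log2 fold change -0.12), against 28.5% and 28.3% of all genes, and in C57BL/6J 7 were higher and 0 lower (0.08), against 20.4% and 17.6%. The counts without the 5 high libraries were 10 lower and 3 higher in CAST/EiJ and 10 higher and 0 lower in C57BL/6J. Eef1a1, which brings transfer RNA to the ribosome, was highest in C57BL/6J at 2739 ± 158 CPM and lowest in CAST/EiJ at 2328 ± 126 CPM.

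Of 15 genes of mTOR, LARP1 and S6 kinase regulation, 12 passed and 1 had a range of at least 1, against 89.2% and 27.6% of all genes. That gene was Eif4ebp1, a repressor of translation that mTOR inactivates, at 2.55 ± 0.505 CPM in PWK/PhJ and 1.23 ± 0.233 CPM in A/J. In PWK/PhJ 7 of the 15 were higher and 2 lower (median 0.10), against 28.9% and 28.8% of all genes, and 8 and 2 without the 5 high libraries. Larp1 was highest there, at 170 ± 3.32 CPM, and lowest in WSB/EiJ, at 139 ± 8.23 CPM.

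Of 32 ribosome assembly factors, 29 passed and 1 had a range of at least 1, against the same 89.2% and 27.6% of all genes. It was Nle1, which acts in 60S maturation, at 18 ± 1.9 CPM in CAST/EiJ and 6.75 ± 0.425 CPM in C57BL/6J. In 129S1/SvImJ 11 of the 32 were higher and 1 lower, against 17.6% and 14.7% of all genes, and in NOD/ShiLtJ 2 were higher and 10 lower, against 21.4% and 18.2%. These counts without the 5 high libraries were 9 and 2, and 3 and 9. Of 78 genes of the mitochondrial ribosome, 61 passed and 0 had a range of at least 1. WSB/EiJ had 23 of them higher and 8 lower, against 22.3% and 20% of all genes, NZO/HlLtJ 2 higher and 17 lower, against 21.8% and 16.2%, and PWK/PhJ 16 higher and 25 lower, against 28.9% and 28.8%. Leaving out the 5 high libraries gave 27 and 9, 10 and 19, and 22 and 27. Of the 46 complex I genes, 30 passed and 0 had a range of at least 1.

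Members differed in how far their reads can be placed. A median of 63.7% of a member's 75-base windows was found in no other gene's transcript in GENCODE M21, and 15 of the members were under 25%. Of these 15, 11 passed the strain F test, and their median range was 0.30, against 0.28 for the rest. Rps27 had 1.5% of its windows to itself, with 98.5% shared with Rps27rt, and Rps27rt had 9.7%. Rpl10a had 12.4% and Rps2 35.6%, with 50 pseudogenes sharing windows with Rps2. Rps3 had 100% and Rps15a 95.9%. The value of Rps15a was taken over a main transcript of 5179 bases, where the median of the members is 886 bases. Of its 5105 windows 4894 were its own, and 6 other genes shared windows with it. Which part of that transcript its reads came from was not tested. Strain variants under the reads, which could move reads between a gene and its copies, were not tested.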

How the data were processed

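Unnormalized whole-number counts of the 64 libraries of total hippocampal RNA stand in 1 table that the authors deposited. Libraries were made with a TruSeq kit after column purification with DNase, per the labels' protocols. Per the submitters' processing notes the genome was build GRCm39, and Ensembl release 105 is named in the table's title. The sources used here give no aligner, counter, use of strand or strain-specific reference. Of the columns, 50 equal the start of a title and 14 lack a single digit of it. No other columns were left (0). CAST/EiJ females carry title numbers 639 to 643, other samples 311 to 462.

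Genes were matched by identifier to GENCODE M21 on build GRCm38 (32095 of 32227, 99.6%), which gave types and lengths but no coordinates. Counts were tested with edgeR 4.0.16 in R 4.3.3 after filterByExpr (minimum count 10, minimum total 15, leaving 17382 genes) and TMM scaling, with 16 group means, a robust quasi-likelihood fit with 48 residual degrees of freedom and Benjamini-Hochberg adjustment over all genes tested, at 0.05. Strains were tested by an F test and against the mean of the other 7, sexes by their 8 group means. Log2 CPM used a prior count of 2. CPM values of the tables were TMM-scaled. The members, the lists, the tests and the rule for named members were chosen with earlier results of these data known. Named members are those with a range of at least 1, the 2 largest called rises and falls per strain, the extremes of spread and of level per length, the paralog pairs, the stalk and 5S proteins, Rps6, Rps27a and the non-subunits. Rps3, Rpsa, Rpl32, Rpl28 and the Rps9 and other strain values beyond these were named after their values were seen, and so were Nle1, Eif4ebp1, Larp1 and Eef1a1. Some genes that the rule names are not reported here.

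The alternatives were DESeq2 1.42.0, its size factors, library totals, other count filters, an additive model, a choroid plexus covariate, members summed with their copies, each library left out and fold minimums. Leaving out the 5 high libraries and a complex I covariate were added after seeing the data. The scripts were tested on simulated counts. Promoters came from RefSeq on GRCm38.p6.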

Additional observations from a re-analysis of the deposited data

Results flagged for a closer look

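In 4 of the 16 groups the summed level had a single library far from the 3 others, by the gap to its neighbour divided by the whole range. This ratio was 0.963 in 129S1/SvImJ females, where female 1 was high, 0.899 in A/J males, where male 2 was high, 0.875 in A/J females and 0.862 in WSB/EiJ females, where female 1 was high. The same measure found an outlying library for Rps2 in 6 groups, for Rps3 and Rps9 in 5 groups each, for Rpl37 in 4 and for Rpl10a, Rpl41 and Rpl5 in 3 each. Rps15a had 2 such groups, and Rpl22l1 and Rplp1 had 1 each. Over all 83 members, 259 of 1328 pairs of gene and group were marked in this way (19.5%), where chance marks about 1 group in 20. The members share their libraries, so these marks are not independent.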

How the results depend on the processing

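No called value changed its sign. The uncalled median of the members turned from 0.05 to -0.02 in 129S1/SvImJ without the 5 high libraries and from 0.07 to -0.01 in A/J without A/J male 2, and that of WSB/EiJ lay near 0 on either side. Of named members' values, 273 of 301 under the alternatives listed first and 54 of 56 under the 2 added ones kept direction and call. The others lost the call, mostly for Rpl3l, Rpl13a and Rpl22l1. Under the former, 80 of 80 medians and 49 of 49 summed levels kept within the replicate spread, and 194 of 254 counts kept within 1.5 times. That spread was the SD over the 8 libraries of a strain, high libraries included. A mean summed level with 1 library left out cannot move by more than this, so those rows could not fail. A range of 0.5 gave 12 members in place of 3. The complex I covariate gave 82 members differing at any fold. Members higher in C57BL/6J were 16 on library totals, 38 without A/J male 2, 44 without the 5 high libraries, and lower 2 without the latter and 15 with the covariate. In 129S1/SvImJ the lower count was 1 with no filter, a mean of 50, the choroid covariate or the additive model, 16 without the high libraries and 14 with the covariate. A/J had 22 higher on totals, 7 with no filter, 8 with a mean of 50, 4 without male 2 and 48 with the covariate, and 1, 5, 10 and 4 lower on totals, without male 2, without the high libraries and with the covariate. NOD/ShiLtJ had 5, 13 and 19 higher in the last 3 settings. NZO/HlLtJ had 60 and 62 higher in the last 2, and 2 lower without A/J male 2, 2 by DESeq2, 2 without the high libraries and 3 with the covariate. WSB/EiJ had 12 and 17 higher and 21 and 24 lower, CAST/EiJ 11 and 21 higher, without the high libraries and with the covariate. PWK/PhJ had 2 higher on totals or with a mean of 50, 8 without A/J male 2, 10 without the high libraries and 9 with the covariate, which gave 66 lower. The median in NOD/ShiLtJ became -0.0159 and -0.00339 in the added settings, and in PWK/PhJ -0.0585 without the high libraries. The median spread within groups was 0.154 and became 0.0683 without them.

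Leaving out each library of the same strain in turn gave 11 to 29 higher and 0 to 1 lower in C57BL/6J, 2 to 11 higher and 0 to 12 lower in 129S1/SvImJ, 4 to 22 higher and 1 to 5 lower in A/J, and 0 to 2 lower in NZO/HlLtJ. It gave 3 to 12 lower in WSB/EiJ, 1 to 6 higher in CAST/EiJ and 2 to 5 higher in PWK/PhJ. The libraries behind the low ends were C57BL/6J male 4, 129S1/SvImJ female 1 (also 12 lower), A/J male 2 (also 5 lower), CAST/EiJ female 4 and PWK/PhJ female 2. WSB/EiJ female 1 gave 12 lower. A/J male 4 gave 22 higher. Apart from the shares given above, the counts of this section have no share of all genes beside them. They are read only as shifts from the fit first described.

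At an absolute log2 fold change of at least 0.5, higher and lower counts were 0 and 0 in C57BL/6J, 1 and 0 in 129S1/SvImJ, A/J 1 and 0, NOD/ShiLtJ 1 lower, NZO/HlLtJ 1 higher, WSB/EiJ 2 and 1, CAST/EiJ 0 and 1, PWK/PhJ 0 and 4. At 1, the single call was 1 lower in WSB/EiJ (Rpl3l), and the others were 0. At 0.5 the single calls in 129S1/SvImJ, A/J, NZO/HlLtJ and CAST/EiJ and the lower one in WSB/EiJ were also Rpl3l. In NOD/ShiLtJ Rpl3l was called higher as well (0.56). This gene had at most 13 counts in any library. The cause of these shifts was not tested. The additive model has no interaction and was not run for it, and DESeq2 was not run for medians. No paired analysis was possible because the labels give no replicate numbers shared between groups. Depth limits Rpl3l, Rpl39l and Rpl35, and their low counts set their precision.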
